A study of Mus musculus with 11 samples.

Results

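The comparison described here is between M2a macrophages, grown with IL-4 and IL-13, and M0 macrophages, grown without cytokines. Arrays were taken by their titles, which gave 3 M2a and 5 M0 arrays, 8 of the 11 arrays of the series. All of the cells came from the bone marrow of Rag1-/- C57BL/6 mice aged 7 weeks, were kept in culture for 7 days and were sorted as cells positive for F4/80, a surface protein of mouse macrophages. The Rag1 deletion, which prevents mature B and T cells from forming, is shared by both groups, so the comparison holds only for marrow of that genotype. The other 3 arrays were M1 macrophages, which received interferon-gamma with lipopolysaccharide in the last 24 h, and they enter here through the shared estimate of spread and where a gene is set against M1. Replicates carry numbers in the labels, which leave unsaid whether separate mice were used. The p-values therefore reflect only the spread among these samples, and that spread may be technical. The series took M0 as its common standard and kept probe sets that moved by 2-fold or more against it.

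IL-4 and IL-13 bind receptors that share the chain encoded by Il4ra, and the bound receptor activates the transcription factor STAT6. In mouse macrophages this pathway is known for inducing arginase 1, the galactose-binding lectins of the Mgl family, chitinase-like and resistin-like secreted proteins, and ligands that dampen T cells. IL-4 is also known to drive macrophages to fuse into multinucleated giant cells. Bone marrow placed in culture holds granulocyte precursors and dividing progenitors as well as the monocytes that become macrophages.

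Among probe sets assigned to exactly 1 gene symbol, the brightest on average over all 11 arrays stood for its gene, which left 18193 genes. Values are the authors' log2 values, so a difference of 1 is 2-fold, and every difference below is M2a minus M0 with the standard error (SE) of limma's fit. A gene is said to have risen or fallen where its Benjamini-Hochberg adjusted p in limma was below 0.05. On every probe set, M0 arrays 1 to 3 had the same mean as M0 arrays 4 and 5, to within 8.33e-05. For the other 9 divisions of the M0 arrays into 2 and 3, the median difference between the means was 0.0874 to 0.31. The M0 arrays are therefore not 5 independent measurements, and no source used here gives the reason. For that reason the fit was also run with M0 arrays 1 to 3 alone and with M0 arrays 4 and 5 alone. A gene called the same way in all of them is said to have held in 3 fits. Because the means tie and the M2a arrays are shared, the difference of a gene is the same in each fit. Its direction was thus fixed in advance, and only its SE and adjusted p could change.

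The arrays of M2a were close to each other, with correlations across genes of 0.996 to 0.998 and a median SD per gene of 0.09, while those within M0 ran from 0.956 to 0.995 with a median SD of 0.24. The median gene lay at 5.96 in both groups. The control probe sets that report on hybridization read 11.15 ± 0.52 (SD, n = 5) in M0 and 9.86 ± 0.09 (SD, n = 3) in M2a, and the poly-A controls, which are spiked into the RNA, read 9.62 ± 0.50 and 6.40 ± 0.10. Neither set of controls overlapped between the groups, so what differs with them and what differs with the cytokines cannot be told apart. The difference between the 5′ and 3′ actin controls, a sign of RNA quality, was -0.61 ± 0.47 in M0 and -0.57 ± 0.06 in M2a, and that of the Gapdh controls -0.37 ± 0.60 and -0.30 ± 0.04. The 18S ribosomal RNA probe set read 9.25 ± 0.27 in M0, from 8.96 to 9.54, and 8.56 ± 0.07 in M2a, from 8.51 to 8.64, without overlap, and its part in the results was not tested.

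A fit that carried the mean of the hybridization controls as a covariate, called the hybridization covariate below, gave 707 genes at least 2-fold higher and 1998 lower, in place of 802 and 901. The controls read 10.61 to 11.7 in M0 and 9.79 to 9.96 in M2a, and were highest in M0 arrays 1 and 4 (11.7 and 11.69). The covariate's slope therefore comes mostly from the M0 arrays and is carried beyond their range to M2a. Calls under it show only how far results depend on that step. Of the named genes, 9 that were called without it had the opposite sign under it, namely Pparg, Cd36, Mitf, Gla, Acsl4, Cxcl14, Rel, Cd274 and Tsix, the antisense RNA of Xist (0.29 in place of -0.56). Of these, Pparg (-0.89, adjusted p = 0.0019 in limma) and Cd36 (-0.78, 0.040) were called lower under it. Mrc1 (-1.32, 0.0008), Il1rn (-0.86, 0.00085) and Ccl22 (0.45, 0.015), which were not called without it, were called with a sign opposite to their values without it. Another 19 kept their direction and were no longer called, namely Socs1, Socs3, Atp6v0d2, Ctsl, Mmp12, Cyc1, Sdhc, Ddit4, Dhcr7, Rrs1, Utp20, Clec4a2, Ptger2, Tnfaip3, Slc11a2, Serpinb9, Serpinb1a, Cd3e and Pax5. Counts for a gene list are given with this covariate, without 1 array or without M0 arrays 1 and 4, where that moved them by over 1.5 times and by at least 2 genes.

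M2a array 3 stood apart from the other M2a arrays. On 32 genes it lay over 2-fold from the mean of the other 2 while those agreed within 0.5, against 2 such genes for M2a array 1 and 3 for M2a array 2. For Xist, the RNA that silences an X chromosome in female cells, M0 read 11.96, 11.90, 11.77, 11.74 and 12.01 in arrays 1 to 5, and M2a read 5.58, 5.81 and 11 in arrays 1 to 3. The Y-linked translation factor gene Eif2s3y read 2.65, 2.36, 3.02, 2.80 and 2.56 in M0 and 8.94, 8.96 and 8.48 in M2a. M2a arrays 1 and 2 thus had the Y-linked transcript without Xist, M2a array 3 had both, and the M0 arrays had Xist alone. Kdm5d, a Y-linked histone demethylase, differed by 4.04 ± 0.16 and Uty by 1.77 ± 0.19 in the same direction, with adjusted p of 1.3e-08 and 2.6e-05 in limma. For Kdm5d the rise was called on 1 of 3 probe sets. Xist differed by -4.41 ± 0.95 (adjusted p = 0.0042 in limma), which became 0.065 with M0 arrays 4 and 5 alone. The labels give no sex, so sex-linked levels and treatment cannot be told apart in this comparison, and their part in the other results was not tested. Of 618 genes on the X chromosome 17.2% were called higher and 12.5% lower, beside 18.7% and 13.3% of 17516 autosomal genes.

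The receptor gene Il10rb, which encodes the shared chain of the IL-10 and IL-22 receptors, was the other gene on which M2a array 3 lay over 16-fold away. It read 10.74 and 10.73 in M2a arrays 1 and 2 and 5.46 in M2a array 3, while M0 read 9.99, 10.76, 10.90, 10.05 and 11.05. Its other probe set read 5.99, 5.71 and 5.43 in M2a and 6.42 to 6.89 in M0. The labels give the same genotype for all M2a arrays. Without M2a array 3 the number of genes called over the whole table was 4238, of which 4177 were among those called with it.

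**Figure D1:**
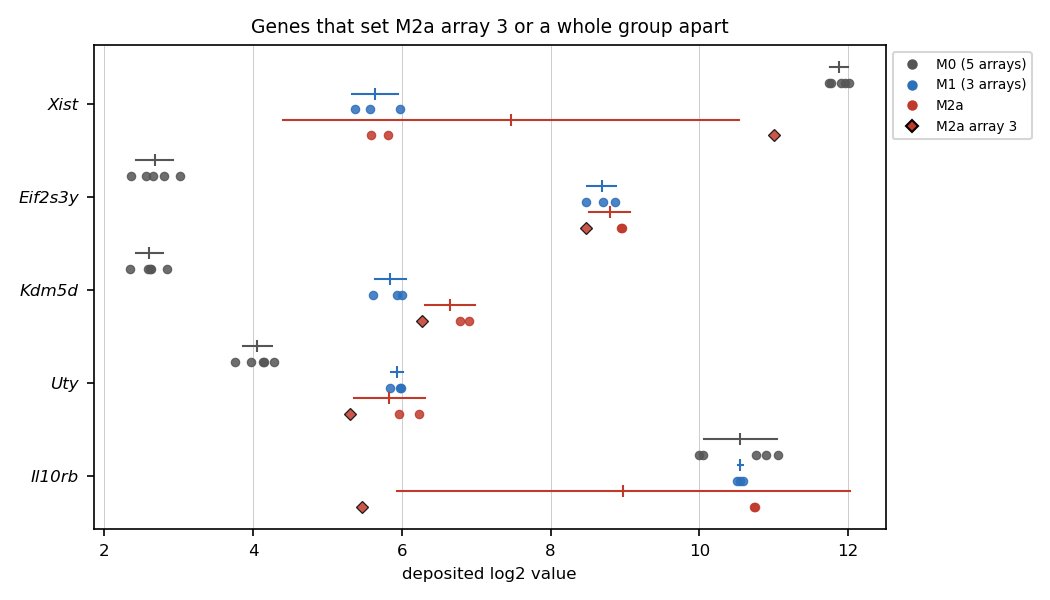
Deposited log2 value (x axis) of 5 genes in each array of M0 (grey), M1 (blue) and M2a (red, array 3 as a diamond), with the group mean ± SD as a bar. Xist was high in all M0 arrays and in M2a array 3 at 11, the Y-linked genes were low in M0 alone, and Il10rb was low in M2a array 3 alone at 5.46.

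The macrophage label was checked on 7 defining genes. Adgre1, which encodes F4/80, read 10.80, 11.39, 11.38, 10.78 and 11.59 in M0 and 11.85, 11.85 and 11.51 in M2a, above the level of 98% of genes in both groups. Cd68, a lysosomal protein of macrophages, read 12.41 ± 0.40 (SD, n = 5) and 12.80 ± 0.05 (SD, n = 3). Lyz2, lysozyme, lay at 14.06 ± 0.09 and 13.26 ± 0.03, and Csf1r, the receptor for macrophage colony-stimulating factor, at 13.22 ± 0.20 and 12 ± 0.27. All of these were well above the median gene in every array of both groups. Itgam, the integrin CD11b, differed by -0.05 ± 0.30 with an adjusted p of 0.92 in limma. The remaining pair, Mertk and Fcgr1, fell, as described below with the uptake and Fc receptors.

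Of the 18193 genes, 5804 (31.9%) differed between M2a and M0 in limma, 3380 (18.6%) higher and 2424 (13.3%) lower. Most of these differences were small: 2578 of the rises and 1523 of the falls were under 2-fold. At 2-fold or more, 802 genes rose (4.41%) and 901 fell (4.95%). Large changes were more often falls by count, with 49 rises and 108 falls of 8-fold to 32-fold and 6 rises and 26 falls of 32-fold or more. In 3 fits 3664 genes held (20.1%), 2008 higher (11%) and 1656 lower (9.1%). The arrays of the groups did not overlap for 6298 genes (34.6%), 3799 with M2a above M0 and 2499 below. Over all genes the median difference was 0.07. The shares of 18.6% higher and 13.3% lower are the background for every list count below, and a count near them is no result about the list.

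**Figure D2:**
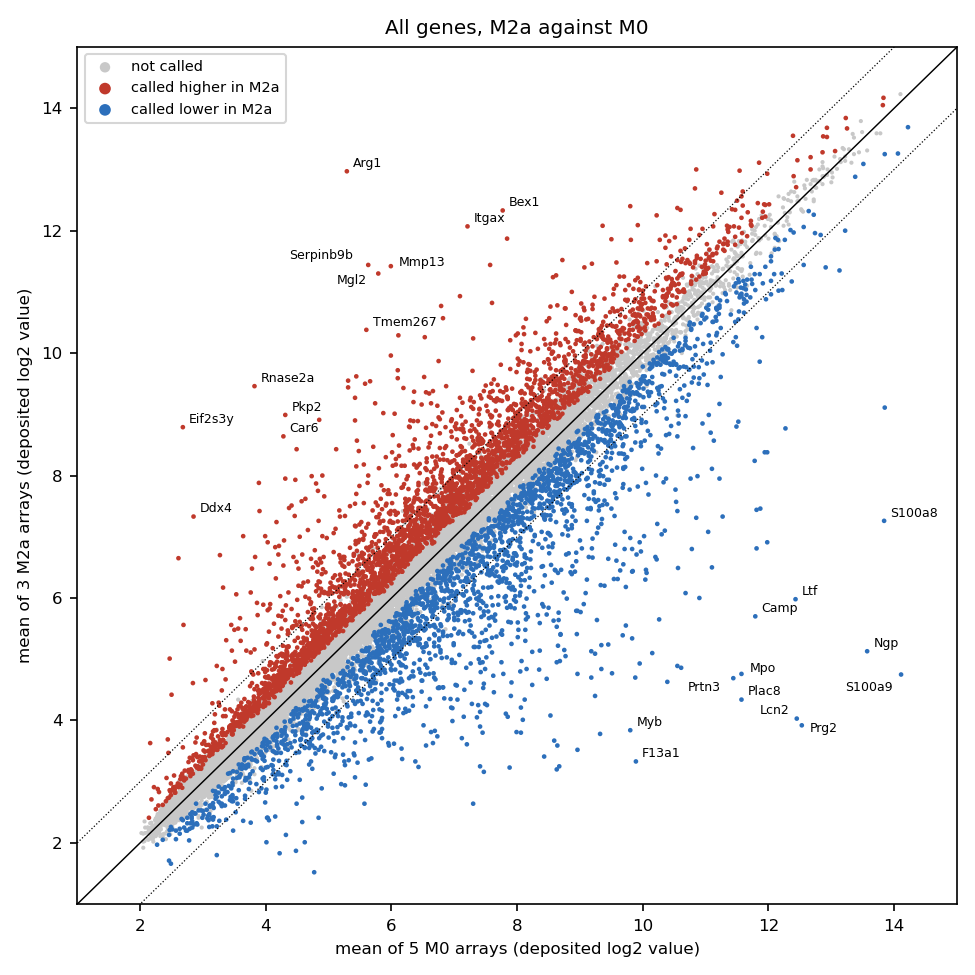
Mean log2 value of every gene in the 5 M0 arrays (x axis) and the 3 M2a arrays (y axis), with called genes in red (higher in M2a, 3380) and blue (lower, 2424), a solid line of equality and dotted lines at 2-fold. The largest rises start from low M0 values, and the largest falls end near the low end of the M2a axis.

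Arg1 rose most among named genes. It encodes arginase 1, which splits arginine into ornithine and urea. The M0 arrays read 4.96, 5.60, 5.30, 4.94 and 5.63, and the M2a arrays read 13.08, 13.13 and 12.68. No M0 array came near an M2a array, and the difference was 7.68 ± 0.18 (SE; adjusted p = 3.6e-10 in limma), a 205-fold rise. M2a also stood 4.20 ± 0.20 above M1.

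Mgl2, a lectin that binds galactose-type sugars and a usual marker of IL-4 stimulated macrophages, read 6.44, 5.85, 5.07, 5.72 and 5.86 in M0 and 11.09, 11.22 and 11.60 in M2a. The groups did not overlap, and the difference was 5.52 ± 0.25 (adjusted p = 3.6e-08 in limma). Serpinb9b, a serine protease inhibitor, read 5.81, 5.62, 5.45, 5.99 and 5.26 in M0 and 11.71, 11.66 and 10.94 in M2a. It rose by 5.81 ± 0.20, also without overlap. Rnase2a, a secreted ribonuclease of the eosinophil-associated family, read 3.63 to 4.06 in M0 and 9.25, 9.61 and 9.52 in M2a, a rise of 5.64 ± 0.12 (adjusted p = 1.4e-10 in limma).

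Mmp13, a collagenase, read 4.30, 6.97, 6.69, 4.97 and 7.00 in M0 and 11.38, 11.34 and 11.54 in M2a. M0 arrays 1 and 4 were the low ones, a pattern that recurs below, and the M2a arrays were above all of them. The rise was 5.44 ± 0.56 (adjusted p = 2.4e-05 in limma). Itgax, the integrin CD11c of dendritic cells and some tissue macrophages, read 6.22, 7.66, 7.75, 6.99 and 7.43 in M0 and 12.13, 12.20 and 11.89 in M2a, with no overlap and a rise of 4.86 ± 0.29. Bex1, a small adaptor protein studied mostly in neurons, spread widely in M0, at 6.20, 7.77, 9.33, 7.32 and 8.22, and was tight in M2a, at 12.34, 12.42 and 12.25. Its rise was 4.56 ± 0.51 (adjusted p = 4.1e-05 in limma).

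The other large rises included genes not usually listed for macrophages. Pkp2, a plakophilin of desmosomes, read 4.05 to 4.58 in M0 and 9.05, 8.98 and 8.95 in M2a. Ddx4, an RNA helicase best known from germ cells, read 2.66 to 3.06 in M0 and 7.48, 7.19 and 7.32 in M2a. Car6, a secreted carbonic anhydrase, read 4.14 to 4.54 in M0 and 8.23, 8.16 and 9.52 in M2a, with M2a array 3 the highest. Tmem267, a membrane protein, rose by 4.78 ± 0.24. The largest rises and falls were chosen among genes whose groups do not overlap, so the lack of overlap is no result for them. The rises and falls picked for each list below met the same criteria, so for them too a lack of overlap is no result. All 12 of the largest rises except Eif2s3y were also higher than in M1 (for Eif2s3y the difference from M1 was 0.11 ± 0.18). The M2a arrays that chose these genes also enter the difference from M1, which favours such calls. The share of all genes called against M1 is not given here.

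**Figure D3:**
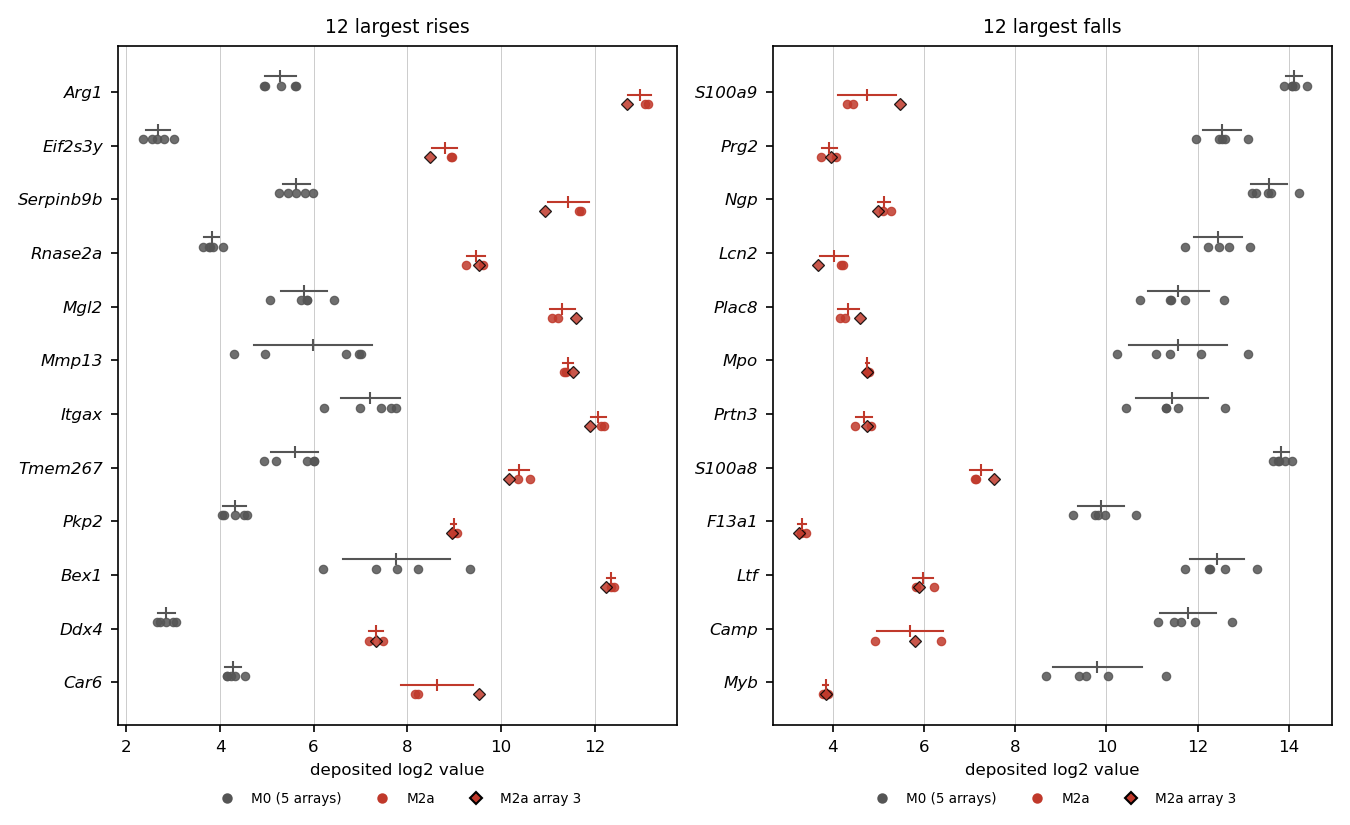
Deposited log2 value (x axis) of the 12 genes that rose most (left panel) and fell most (right panel) in each M0 array (grey) and M2a array (red, array 3 as a diamond), with the group mean ± SD as a bar. They were chosen among genes whose groups do not overlap, and run from Arg1 at 12.68 or more in M2a to S100a9 at 5.48 or less.

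STAT6 binds the palindrome TTCNNNNGAA, in which the spacer is longer by a base than in the TTCNNNGAA form favoured by other STAT proteins. RefSeq promoters of 250 bases before to 50 bases after the start site, on build GRCm38.p6, were searched for both motifs, which read the same on either strand. The stretches below are from genes the comparison turns on, among them Itgax and Tmem267 from the largest rises, Retnla and Pdcd1lg2 from the usual M2a genes and Ccl17, which has the motif and did not change. Each is printed from 5′ to 3′ in lower case, on the plus strand, with the motif in capitals.
Itgax, chr7:128129378-128129477: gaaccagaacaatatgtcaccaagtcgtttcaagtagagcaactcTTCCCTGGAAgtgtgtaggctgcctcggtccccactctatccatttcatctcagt
Tmem267, chr13:119487836-119487905: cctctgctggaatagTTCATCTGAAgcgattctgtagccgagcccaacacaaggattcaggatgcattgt
Retnla, chr16:48842419-48842518: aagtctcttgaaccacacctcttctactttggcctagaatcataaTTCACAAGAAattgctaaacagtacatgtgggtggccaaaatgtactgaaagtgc
Pdcd1lg2, chr19:29410792-29410891: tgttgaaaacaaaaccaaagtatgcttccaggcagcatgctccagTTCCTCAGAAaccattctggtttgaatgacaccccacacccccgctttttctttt
Ccl17, chr8:94810254-94810353: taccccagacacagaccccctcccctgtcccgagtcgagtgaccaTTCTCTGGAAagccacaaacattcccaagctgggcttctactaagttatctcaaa

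The motif begins 127 bases before the start site in Itgax, 235 in Tmem267, 145 in Retnla, 82 in Pdcd1lg2 and 154 in Ccl17. Over the genes with a matched promoter, TTCNNNNGAA was present in 6.95% of all 32851 promoters in the table, in 6.94% of 14452 measured genes, in 6.58% of 2734 genes called higher and in 6.01% of 632 genes called at least 2-fold higher. Among 711 genes called at least 2-fold lower it was present in 7.31%. Of the 43 genes called at least 8-fold higher that had a promoter, 4 held it, as did 2 of the 10 largest rises and 3 of the 11 largest falls with a promoter in the table, the latter being Lcn2, Plac8 and Mpo. The form with the shorter spacer was present in 8.57% of measured genes and in 8.23% of those called at least 2-fold higher. These are letter matches in a short window, and a match is not a binding site.

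Among 16 measured genes of the IL-4 and IL-13 receptor pathway, 3 were called higher and 3 lower, near the share over all genes, and the list's median was -0.05. Without M0 arrays 1 and 4 it was 4 higher and 5 lower, and under the hybridization covariate 3 and 5. Il4ra, the shared receptor chain, read 7.06, 7.45, 7.52, 7.26 and 7.43 in M0 and 6.89, 6.68 and 6.39 in M2a, with all M2a arrays below all M0 arrays (-0.69 ± 0.14; adjusted p = 0.0023 in limma). Stat6 itself differed by 0.14 ± 0.14 (adjusted p = 0.48 in limma). Members that restrain cytokine signalling moved apart. Socs1, a suppressor of JAK kinases, read 4.69, 4.84, 4.80, 4.15 and 5.40 in M0 and 5.84, 5.75 and 5.91 in M2a, a rise of 1.06 ± 0.21, and Cish, a relative of it, rose by 0.92 ± 0.14. Socs3, which restrains STAT3 signalling, fell by 1.20 ± 0.27, and Ptpn6, the phosphatase SHP-1, fell by 1.45 ± 0.11 from 10.18 to 10.59 in M0 to 8.81 to 9.04 in M2a.

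Of 26 genes usually taken to mark M2a macrophages, 16 were called higher and 2 lower, and 14 and 2 held in 3 fits. Their median difference was 1.14. The count was 16 higher and 7 lower under the hybridization covariate. The list was written with earlier results of these data known, so its count is no independent evidence of direction. Chil4, a chitinase-like protein, read 4.87, 4.35, 4.48, 4.62 and 4.52 in M0 and 7.24, 7.60 and 7.90 in M2a. Its relative Chil3 (Ym1) was already at 13.44, 12.55, 12.61, 12.95 and 12.80 in M0 and read 13.57, 13.57 and 13.49 in M2a. The M2a arrays of Chil3 were above every M0 array by a narrow margin, and the rise was 0.67 ± 0.19 (adjusted p = 0.019 in limma, and 0.052 to 0.065 without each M2a array in turn), beside 3.01 ± 0.15 for Chil4. Retnla, the secreted resistin-like protein also called FIZZ1, read 7.46, 6.15, 6.54, 6.63 and 6.79 in M0 and 8.65, 8.95 and 8.82 in M2a, a rise of 2.09 ± 0.24.

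The rises in this list extended to surface and secreted proteins. Pdcd1lg2, the inhibitory ligand PD-L2, read 5.09, 4.47, 4.06, 4.40 and 4.68 in M0 and 6.68, 6.82 and 7.50 in M2a, without overlap. Cdh1, the adhesion protein E-cadherin, read 5.44, 4.01, 3.65, 3.87 and 4.86 in M0 and 7.35, 7.18 and 7.86 in M2a, a rise of 3.10 ± 0.36. Fn1, fibronectin, rose by 2.32 ± 0.23, Matk, a kinase that restrains Src kinases, by 1.64 ± 0.17, and Flt1, a receptor for vascular endothelial growth factor, by 1.22 ± 0.15.

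Several genes of the list did not differ. Ccl17 read 5.29, 4.90, 5.03, 5.21 and 4.94 in M0 and 5.08, 5.03 and 4.97 in M2a, and Ccl22 read 4.55, 4.26, 4.24, 4.56 and 4.15 in M0 and 4.43, 4.31 and 4.28 in M2a. Both chemokine genes, which are ligands of CCR4, overlapped between the groups and lay under the median gene in every array. Their differences were -0.05 ± 0.12 and -0.01 ± 0.11, with adjusted p of 0.79 and 0.94 in limma. The mannose receptor Mrc1 read 8.51, 9.98, 9.55, 8.41 and 10.28 in M0 and 10, 10.06 and 10.29 in M2a. M0 arrays 1 and 4 were the low ones, and only M0 array 5 lay within the range of the M2a arrays. The difference of Mrc1 was 0.77 ± 0.38, with an adjusted p of 0.15 in limma. Without M0 array 5, the highest, that was 1.01 with an adjusted p of 0.031 in limma. Il1rn, the IL-1 receptor antagonist, differed by 0.86 ± 0.31 (adjusted p = 0.055 in limma), Ccl24 by 0.30 ± 0.12 (0.077), Clec10a by -0.54 ± 0.22 (0.088), Tgm2 by -0.42 ± 0.16 (0.067) and Myc by -0.07 ± 0.19 (0.79). Leaving out an array brought some of these under the threshold, with adjusted p of 0.040 and 0.0077 for Il1rn without M0 array 2 or 5, 0.022 for Ccl24 and 0.014 for Tgm2 without M0 array 1, and 0.0072 for Clec10a without M2a array 3. Pparg, a lipid-sensing nuclear receptor, and Cd36, a scavenger receptor for oxidized lipid, differed by 1.27 ± 0.39 and 1.05 ± 0.35. Their adjusted p of 0.027 and 0.041 became 0.095 and 0.17 with M0 arrays 4 and 5 alone.

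Both members that fell are known as genes that IL-4 raises in human monocytes. F13a1, coagulation factor XIII, read 10.66, 9.74, 9.27, 9.82 and 9.96 in M0 and 3.31, 3.41 and 3.25 in M2a, without overlap, and fell by 6.57 ± 0.23. Alox15, a lipoxygenase that eosinophils also make, read 10.03, 7.84, 8.37, 8.30 and 9.20 in M0 and 5.30, 4.79 and 5.37 in M2a, and fell by 3.60 ± 0.40. Both lists of granulocyte genes described below fell in the same comparison, and their part in these falls was not tested.

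**Figure D4:**
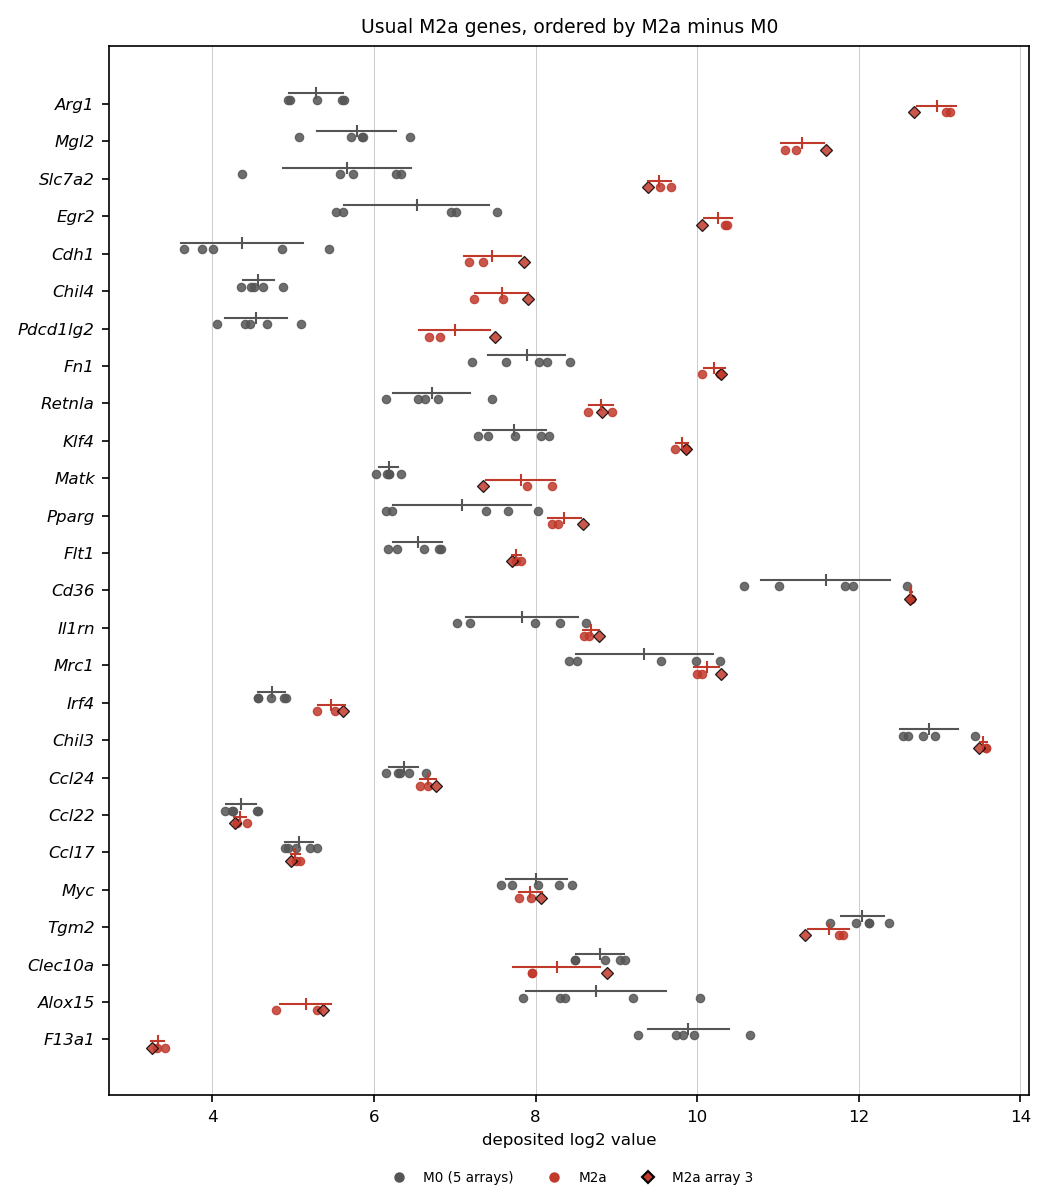
Deposited log2 value (x axis) of 26 genes usually taken to mark M2a macrophages, ordered by the difference between the groups, in each M0 array (grey) and M2a array (red, array 3 as a diamond), with the group mean ± SD as a bar. The separation runs from Arg1, higher by 7.68, to F13a1, lower by 6.57, with Ccl17 and Ccl22 overlapping in between.

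Transcription factors of macrophage activation changed in both directions, with 12 of 29 measured members higher and 10 lower and 11 and 9 in 3 fits. The median of 0.16 became -0.25 under the hybridization covariate, with 9 higher and 11 lower. Egr2, a zinc-finger factor induced by IL-4, read 5.62, 7.02, 6.95, 5.53 and 7.52 in M0 and 10.35, 10.37 and 10.06 in M2a, a rise of 3.73 ± 0.41 without overlap. Its relative Egr1 went the other way, from 11.06, 10.30, 10.36, 10.58 and 10.56 in M0 to 8.61, 8.86 and 9.08 in M2a, and fell by 1.72 ± 0.17. Bhlhe40, a helix-loop-helix repressor, read 8.23 to 8.83 in M0 and 10.71 to 10.84 in M2a and rose by 2.24 ± 0.14. Klf4 rose by 2.08 ± 0.19, Batf3 by 1.28 ± 0.13 and Irf4 by 0.74 ± 0.11, with Irf4 at 5.29 to 5.61 in M2a and so still under the median gene. Batf, a partner of AP-1 proteins, fell by 1.05 ± 0.20.

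Genes of cell fusion and of osteoclasts included some of the clearer rises. Of 18 measured, 8 rose and 2 fell, all of them also in 3 fits, with a list median of 0.30. Ctsk, the collagen-degrading protease cathepsin K, read 6.68, 8.22, 7.81, 6.73 and 8.41 in M0 and 11.50, 11.35 and 11.47 in M2a, a rise of 3.87 ± 0.36 (adjusted p = 1.1e-05 in limma). Dcstamp and Ocstamp, membrane proteins needed for macrophages to fuse, are named here after their values were seen. Dcstamp read 5.57, 6.60, 5.96, 6.29 and 5.81 in M0 and 9.26, 9.32 and 8.43 in M2a, and Ocstamp read 4.74, 5.27, 4.69, 4.79 and 5.01 in M0 and 8.39, 8.40 and 7.20 in M2a. For both genes M2a array 3 was the lowest of the M2a arrays and still above every M0 array, and the rises were 2.96 ± 0.25 and 3.10 ± 0.25. Itgb3, the integrin chain through which osteoclasts attach, rose by 1.14 ± 0.24. Nfatc1, the factor that drives osteoclast formation, fell by 1.01 ± 0.18 and the tetraspanin Cd81, which limits fusion, by 0.78 ± 0.16. The fall of Nfatc1 was called on 2 of its 5 probe sets.

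The vacuolar proton pump, which acidifies lysosomes, had 13 of 18 measured subunits higher and none lower, 10 of them in 3 fits, with a list median of 0.57. Atp6v0d2, a subunit abundant in osteoclasts and also tied to fusion, read 8.53, 10.10, 10.76, 9.46 and 10.13 in M0 and 12.37, 12.37 and 12.44 in M2a. Atp6v0a1 read 6.82, 7.62, 7.47, 7.44 and 7.17 in M0 and 9.07, 9.12 and 9.41 in M2a. In both cases M2a lay above all M0 arrays, by 2.60 ± 0.39 and 1.90 ± 0.17 on average. The hybridization covariate left 4 subunits called higher, none lower, and a median of 0.05. It was 8 subunits without M2a array 1 and also 8 without M2a array 2.

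Lysosomal enzymes and membrane proteins moved less, with 8 of 23 higher and 2 lower and a median of 0.41. Lamp2, a major protein of the lysosomal membrane, rose by 0.99 ± 0.13 and Gla, alpha-galactosidase, by 1.10 ± 0.31 (adjusted p = 0.019 in limma, and 0.051 to 0.075 without each M2a array in turn). The rise of Lamp2 was called on 2 of its 4 probe sets and that of Gla on 1 of 3, with none called lower. The list's count depended on the arrays. Without each M2a array in turn it was 3 higher and 1 lower, and without M0 array 1 it was 6 and 4. Without M0 arrays 1 and 4 it was 7 and 6. Under the hybridization covariate it was 1 higher and 9 lower, with a median of -0.42. Among 14 cathepsins, 4 rose and 4 fell. Ctsl, cathepsin L, rose by 1.16 ± 0.20, while Ctsc, which activates the proteases of granules, fell by 1.55 ± 0.32, and Ctsg, a protease of neutrophil granules, fell from 8.85 to 11.84 in M0 to 5.00 to 5.28 in M2a. The rises numbered 2 in the place of 4 with M0 arrays 4 and 5 alone, and likewise without each M2a array in turn. With the hybridization covariate 1 was higher and 5 lower, and the median of 0.23 became -0.29.

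Proteases that act on the matrix, and their inhibitors, had 11 of 22 higher and 6 lower. Beside Mmp13, the macrophage elastase gene Mmp12 read 10.16, 11.18, 11.19, 9.77 and 11.92 in M0 and 13.15, 12.96 and 12.90 in M2a, a rise of 2.16 ± 0.39 without overlap. Mmp14, a membrane-bound collagenase, fell by 2.61 ± 0.34 and Mmp8, the neutrophil collagenase, by 4.61 ± 0.20. Growth factors of repair were split, 7 of 18 higher and 6 lower. Hbegf, a ligand of the epidermal growth factor receptor, read 5.71, 5.75, 5.68, 6.00 and 5.43 in M0 and 8.35, 8.37 and 8.69 in M2a, a rise of 2.75 ± 0.13 (adjusted p = 4.6e-08 in limma), and Pdgfb, a chain of platelet-derived growth factor, rose by 1.62 ± 0.20. Thrombospondin 1, Thbs1, fell from 11.45, 10.69, 10.55, 9.61 and 12.19 in M0 to 5.81, 5.84 and 6.34 in M2a, and Ccn2, connective tissue growth factor, fell by 4.16 ± 0.42. Under the hybridization covariate 4 growth factors were higher and 6 lower, with the median turning from 0.09 to -0.29, and 7 of the proteases and inhibitors were higher and 6 lower.

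Of 15 measured genes of arginine and polyamine metabolism, 6 rose and 4 fell. The cationic amino acid transporter gene Slc7a2, which brings arginine into the cell, read 4.37, 6.34, 6.27, 5.58 and 5.74 in M0 and 9.54, 9.67 and 9.39 in M2a, a rise of 3.88 ± 0.35 without overlap. Arg2, the mitochondrial arginase, went opposite to Arg1, from 7.69, 7.74, 8.70, 7.75 and 8.34 in M0 to 4.78, 5.18 and 4.45 in M2a, and fell by 3.24 ± 0.24. Sat1, which acetylates polyamines for breakdown or export, fell by 1.20 ± 0.13. Nos2, the inducible nitric oxide synthase that competes with arginase for arginine, differed by 0.13 and Odc1, which makes putrescine from ornithine, by -0.09, and neither was called.

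The amino acid response, run by the transcription factor ATF4, and serine synthesis rose in most members: 12 of 17 were higher and 1 lower, 11 and 1 in 3 fits, with a median of 0.88. Over all settings tried, the count was 9 to 12 higher and 0 to 2 lower. Under the hybridization covariate it was 9 higher and 1 lower with a median of 0.85. Trib3, a pseudokinase induced by ATF4, read 5.38, 6.55, 6.36, 5.60 and 6.59 in M0 and 9.69, 9.38 and 10.08 in M2a, a rise of 3.62 ± 0.28, and Cth, which makes cysteine, rose by 2.53 ± 0.28. The serine pathway enzymes, named after their values were seen, rose together. Phgdh, its entry enzyme, read 9.25, 8.98, 8.38, 9.02 and 8.72 in M0 and 10.92, 10.67 and 11.42 in M2a, and Psat1, the aminotransferase after it, rose by 2.06 ± 0.23. Psph, the phosphatase of the last step, rose by 1.20, and Asns, asparagine synthetase, by 2.04 ± 0.19. Ddit4, an inhibitor of mTOR signalling that ATF4 can also induce, fell by 1.26 ± 0.32 (adjusted p = 0.010 in limma, and 0.053 without M2a array 1).

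Genes of the tricarboxylic acid cycle and respiratory chain rose in number but not in size, 24 of 35 higher and 1 lower, with a median of 0.52 and 1 member past 2-fold. Sdhc, an anchor subunit of succinate dehydrogenase, read 7.78, 8.61, 8.47, 7.85 and 8.72 in M0 and 9.53, 9.59 and 9.57 in M2a, and Cyc1, cytochrome c1, rose by 0.87 ± 0.14. These counts moved with the setting: 14 higher and none lower held in 3 fits, and under the hybridization covariate 4 were higher and 5 lower with a median of -0.05. Of 26 genes of lipid uptake, storage and oxidation, 8 rose and 2 fell, which became 4 and 10 with that covariate, 8 and 6 without M0 arrays 1 and 4, and 7 and 4 without M0 array 1. Ppargc1b, a coactivator that drives mitochondrial genes, read 6.53, 6.94, 6.98, 7.11 and 6.52 in M0 and 9.04, 9.12 and 8.92 in M2a, a rise of 2.21 ± 0.14 (adjusted p = 6.5e-07 in limma). Cpt1a, which passes fatty acids into mitochondria, fell by 0.92 ± 0.17, and Acsl4, which activates long-chain fatty acids, rose by 1.79 ± 0.39.

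In glycolysis 6 of 19 genes rose (31.6%, beside 18.6% of all genes) and 3 fell (15.8%, near the 13.3% of all genes). The counts became 6 and 5 without M0 arrays 1 and 4. The glucose transporters moved oppositely: Slc2a1 read 7.61, 8.52, 8.73, 7.97 and 8.61 in M0 and 10.49, 10.44 and 10.08 in M2a, while Slc2a3 read 10.85, 10.30, 10.54, 10.92 and 10.20 in M0 and 6.39, 6.46 and 6.61 in M2a. The differences were 2.04 ± 0.23 and -4.07 ± 0.16. For Slc2a3 the fall was called on 2 of 4 probe sets, and none was called higher. Without probe sets whose names end in _x_at or _s_at the gene's value was 0.23 (adjusted p = 0.16 in limma). Pfkp, the platelet-type phosphofructokinase, rose by 1.42 ± 0.19, and Slc16a3, a lactate exporter, fell by 0.51 ± 0.10. Cholesterol synthesis had 1 of 19 genes higher and 4 lower, with Idi1 down by 1.46 ± 0.16 and Dhcr7, the last enzyme, up by 0.92 ± 0.16. Without M0 arrays 1 and 4 the count was 1 and 9, with M0 arrays 4 and 5 alone 1 and 2, without M2a array 3 it was 2 and 2, and under the hybridization covariate none was higher and 12 were lower. Fdft1, squalene synthase, fell by 0.63 ± 0.11 on the chosen probe set, while another of its probe sets was called higher.

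Chaperones moved both ways, with 7 of 22 higher and 6 lower. Those that rose most were the inducible cytosolic heat shock proteins. Hspa1a read 4.73, 4.81, 4.88, 4.26 and 5.34 in M0 and 7.96, 8.14 and 7.52 in M2a, and Hspa1b rose by 3.44 ± 0.45. The genes are near-identical, and probe sets for them can share signal. Those that fell most belong to the endoplasmic reticulum, Calr, calreticulin, by 0.76 ± 0.11 and Pdia6, a disulfide isomerase, by 0.73 ± 0.14. The other of the 2 Pdia6 probe sets differed by -0.03 and was not called. Without M0 arrays 1 and 4 the list had 7 higher and 10 lower, and under the hybridization covariate 5 and 14. Among 20 genes of ribosome biogenesis, 3 rose (15%, under the 18.6% of all genes), none fell and 17 were not called, with Rrs1 up by 1.70 ± 0.25 and Utp20 by 0.61 ± 0.11. Without M0 array 2 or without M0 array 5 the rises numbered 5. It was 2 higher and 2 lower without M0 array 3, and 1 higher and 5 lower under the hybridization covariate.

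Ligands that restrain or stimulate T cells had 6 of 16 higher (37.5%, beside 18.6% of all genes) and 2 lower (12.5%, near the 13.3% of all genes). The count was 3 and 1 in 3 fits. It was 3 and 5 under the hybridization covariate. Beside Pdcd1lg2, the ligand PD-L1, Cd274, read 6.76, 7.71, 8.13, 6.71 and 8.35 in M0 and 8.92, 8.87 and 9.36 in M2a, a rise of 1.52 ± 0.35 (adjusted p = 0.0060 in limma). Cd86, which stimulates T cells through CD28, read 6.26, 7.04, 6.74, 6.36 and 7.00 in M0 and 5.11, 5.24 and 5.45 in M2a, and fell by 1.41 ± 0.18. MHC class II presentation had no member higher and 5 of 9 lower, 4 in 3 fits, with a median of -0.80. H2-Aa, an alpha chain, read 9.36, 10.41, 10.19, 9.67 and 10.30 in M0 and 8.10, 8.46 and 7.76 in M2a, and H2-Eb1, a beta chain, fell by 1.70 ± 0.22. Dendritic cell genes were near the background, 3 of 17 higher and 3 lower, or 5 and 3 under the hybridization covariate. Itgax and Batf3 rose, while Cd83 fell by 1.77 ± 0.40 and Id2, a factor that dendritic cells need, by 1.26 ± 0.17. Zbtb46, Xcr1, Siglech and Cd209a, which define dendritic cell subsets, were not called, with differences from -0.07 to 0.06. They were picked outside the rule for named genes, and 11 of the 17 measured members of the list were not called.

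**Figure D5:**
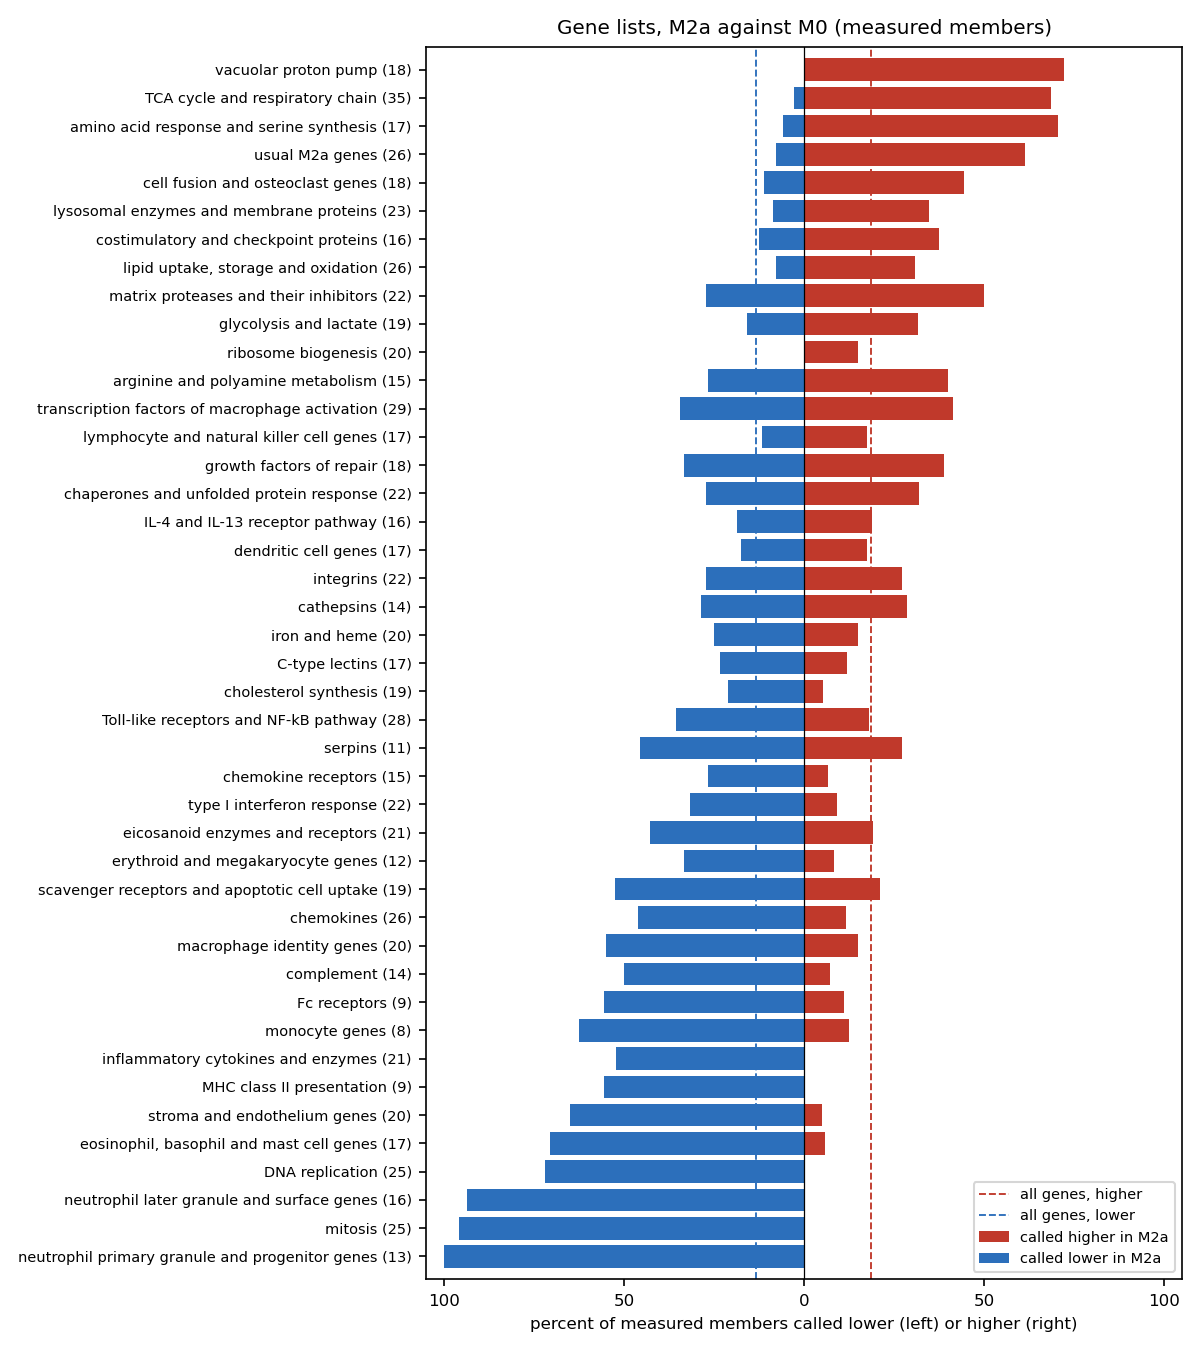
Percent of the measured members of each of 43 gene lists (number measured in brackets) called lower in M2a (blue, left) or higher (red, right), with dashed lines at the shares over all genes, 13.3% lower and 18.6% higher. The proton pump is at the top with 72.2% higher, and the neutrophil primary granule genes are at the bottom with 100% lower.

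Integrins had 6 of 22 higher and 6 lower, 27.3% each, beside 18.6% and 13.3% of all genes. Beside the rise of Itgax, Itgal, the LFA-1 chain of circulating leukocytes, fell from 10.16, 10.32, 10.43, 10.13 and 10.48 in M0 to 7.47, 7.38 and 6.28 in M2a, and Itga1, a collagen receptor chain, fell by 1.99 ± 0.25. C-type lectins had 2 of 17 higher and 4 lower. Against the rise of Mgl2, Clec4n, the fungal receptor Dectin-2, read 8.92, 10.23, 10.49, 9.45 and 10.32 in M0 and 4.14, 4.92 and 5.05 in M2a, and fell by 5.18 ± 0.34 without overlap. Clec4e, the receptor Mincle, fell by 3.28 ± 0.22, while the inhibitory Clec4a2 rose by 0.76 ± 0.16. Without M0 array 5 it was 4 higher and 4 lower, and under the hybridization covariate 2 higher and 7 lower.

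Genes of macrophage identity fell more often than they rose, 3 of 20 higher and 11 lower, with a median of -0.93, and 2 and 10 held in 3 fits. The hybridization covariate gave 1 higher and 13 lower. Aif1, the actin-binding protein IBA1, read 8.68, 9.88, 9.96, 9.22 and 9.80 in M0 and 4.59, 4.97 and 4.74 in M2a, and fell by 4.74 ± 0.25 (adjusted p = 1.4e-07 in limma). Maf, a factor of resident macrophages, read 10.65, 11.68, 11.47, 10.77 and 11.77 in M0 and 7.36, 7.19 and 7.44 in M2a. Both separated fully from M0, which the rule that chose them required. The same holds for the fractalkine receptor Cx3cr1, which fell by 1.68 ± 0.15. The other of the 2 Cx3cr1 probe sets differed by -0.29 and was not called. On the other side, Mitf, which controls lysosomal genes, rose by 1.56 ± 0.30 and Spi1, the factor PU.1, by 0.42 ± 0.08. Adgre1 rose by 0.55 ± 0.19 (adjusted p = 0.042 in limma), which became 0.14 with M0 arrays 4 and 5 alone.

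Scavenger receptors and genes for the uptake of dying cells had 4 of 19 higher (21.1%, near the 18.6% of all genes) and 10 lower (52.6%, beside 13.3%). Stab1, stabilin-1, read 8.77, 10.20, 10.08, 9.96 and 9.41 in M0 and 5.37, 5.49 and 5.30 in M2a, and fell by 4.29 ± 0.27. Axl, a receptor tyrosine kinase for apoptotic cells, read 8.54, 9.75, 9.73, 8.68 and 10 in M0 and 5.58, 5.90 and 4.22 in M2a. The other of its 2 probe sets differed by 0.23 and was not called. Its relative Mertk fell by 1.85 ± 0.32. Mfge8, the bridging protein that recognizes phosphatidylserine, rose from 8.14, 9.23, 9.83, 9.13 and 9.0 in M0 to 11.65, 11.67 and 10.86 in M2a. The 4 rises were 1 in the fit of the M0 and M2a arrays alone, and also 1 in 3 fits, where Mfge8 alone remained; the 10 falls all held in 3 fits. The rises also numbered 1 without M2a array 1 or 2, and 2 without M2a array 3 or under the hybridization covariate, which gave 13 falls.

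Complement genes had 1 of 14 higher and 7 lower. C1qa, a chain of the first complement component that macrophages make, read 9.57, 10.77, 10.26, 9.59 and 10.81 in M0 and 6.83, 7.14 and 6.04 in M2a, and C1qb fell by 3.50 ± 0.28. The rise in that list was Itgax, whose product is part of a complement receptor, and 3 were higher with M0 arrays 1 to 3 alone, without M0 arrays 1 and 4 or under the hybridization covariate. Of 9 Fc receptors, 1 rose and 5 fell, with 4 falls in 3 fits. Fcgr1, the high-affinity receptor for IgG, read 8.24, 9.30, 8.91, 8.06 and 9.57 in M0 and 6.86, 6.80 and 6.55 in M2a, and Fcrl1 fell by 2.27 ± 0.31.

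Inflammatory cytokines and enzymes had none higher and 11 of 21 lower, 9 of them in 3 fits. Ebi3, a subunit of IL-27 and IL-35, read 9.0, 8.96, 8.89, 8.75 and 9.15 in M0 and 5.49, 5.44 and 5.30 in M2a, and fell by 3.53 ± 0.10 (adjusted p = 9.4e-10 in limma), and Ptgs2, cyclooxygenase 2, fell by 3.18 ± 0.23. Without M0 arrays 1 and 4 this list had 4 higher and 12 lower, without M0 array 4 it had 2 and 11, and under the hybridization covariate 4 and 10. Of 28 genes of Toll-like receptors and the NF-kB pathway, 5 rose (17.9%, near the 18.6% of all genes) and 10 fell (35.7%, beside 13.3%). Under the hybridization covariate 2 were higher and 17 lower with a median of -1.10 in place of -0.13, and without M0 arrays 1 and 4 it was 5 and 14. Tlr2, which senses bacterial lipoproteins, read 8.82, 9.48, 9.50, 9.04 and 9.50 in M0 and 5.95, 5.17 and 5.79 in M2a, and Nfkbiz, an NF-kB cofactor, fell by 2.83 ± 0.16. Tnfaip3, the inhibitor A20, rose by 1.42 ± 0.24 and the subunit gene Rel by 0.95 ± 0.22. Type I interferon response genes had 2 of 22 higher and 7 lower, 1 and 4 in 3 fits. It was 1 and 17 under the hybridization covariate, with a median of -0.81 in place of -0.10, 2 and 11 without M0 arrays 1 and 4, and 4 and 7 without M0 array 5. The antiviral gene Rsad2 read 8.22, 8.63, 8.63, 8.50 and 8.50 in M0 and 9.98, 10.05 and 9.65 in M2a, a rise of 1.40 ± 0.12, whereas Mx1 and Oas2 fell by 1.24 ± 0.17 and 1.08 ± 0.13.

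Chemokines had 3 of 26 higher and 12 lower, and 1 and 10 in 3 fits. Cxcl3, which attracts neutrophils, read 8.48, 7.61, 7.55, 7.20 and 8.56 in M0 and 3.35, 3.05 and 3.27 in M2a, and fell by 4.65 ± 0.29, and Cxcl14 rose by 1.43 ± 0.35. The number higher was 6 without M0 arrays 1 and 4, 7 under the hybridization covariate, 5 without M0 array 1, and 1 without M0 array 3, M2a array 1 or M2a array 3. Chemokine receptors had 1 of 15 higher and 4 lower, and 6 lower without M0 arrays 1 and 4 or under the hybridization covariate. Ccr3, the eotaxin receptor of eosinophils, named after its values were seen, differed most, by -2.65 ± 0.65 (adjusted p = 0.0086 in limma, and 0.060 with M0 arrays 4 and 5 alone). Of the falls that held in 3 fits, that of Cxcr2, the neutrophil receptor, was the largest at -2.13 ± 0.19. Eicosanoid enzymes and receptors had 4 of 21 higher (19.0%, near the 18.6% of all genes) and 9 lower (42.9%, beside 13.3%). Ptgir, the prostacyclin receptor, read 6.24, 5.91, 6.16, 5.77 and 6.44 in M0 and 9.59, 9.42 and 9.75 in M2a, a rise of 3.49 ± 0.14 (adjusted p = 1.9e-08 in limma), and Ptger2, a receptor for prostaglandin E2, rose by 1.65 ± 0.32. Hpgd, which degrades prostaglandins, fell from 10.07, 10.97, 10.80, 10.11 and 11.12 in M0 to 5.25, 5.35 and 3.97 in M2a.

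Iron and heme genes had 3 of 20 higher (15%, beside 18.6% of all genes) and 5 lower (25.0%, beside 13.3%). Slc40a1, the iron exporter ferroportin, read 11.55, 12.15, 12.23, 11.64 and 12.31 in M0 and 7.54, 7.51 and 5.67 in M2a, and fell by 5.07 ± 0.37, with M2a array 3 the lowest. Slc48a1, a heme transporter, rose by 1.28 ± 0.16 and Slc11a2, an iron importer, by 0.70 ± 0.13. The rise was called on 1 of 2 probe sets of Slc48a1 and on 3 of 4 of Slc11a2. Rises in the list numbered 5 with M0 arrays 1 to 3 alone and 5 without M0 array 5. Under the hybridization covariate 2 were higher and 11 lower, with a median of -0.89 in place of 0.15. Serpins had 3 of 11 higher and 5 lower. Serpinb9b and its relative Serpinb9 (1.98 ± 0.36) rose, while Serpinb2, an inhibitor of plasminogen activators, fell from 10.50, 8.57, 8.87, 8.06 and 10.58 in M0 to 4.13, 3.94 and 3.27 in M2a. The falls numbered 3 without M2a array 2 and 3 without M2a array 3, and under the hybridization covariate 1 was higher and 4 lower, with a median of -0.77 in place of 0.08.

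Of the 12 largest falls, 10 were genes of the granulocyte lists and the other 2, Plac8 and F13a1, were in the list of monocyte genes. The cells of both groups had been sorted on F4/80, a gate meant to remove neutrophils and granulocyte progenitors, whereas mouse eosinophils can carry F4/80. S100a9, a calcium-binding protein that fills the cytosol of neutrophils, read 14.39, 13.89, 14.06, 14.14 and 14.08 in M0 and 4.31, 4.45 and 5.48 in M2a. The difference was -9.37 ± 0.23 (adjusted p = 4.2e-10 in limma), the largest of any named gene, and its partner S100a8 fell by 6.58 ± 0.13. Ngp, a protein of neutrophil granules, read 14.22, 13.19, 13.29, 13.60 and 13.54 in M0 and 5.11, 5.27 and 5.00 in M2a. Lcn2, an iron-binding protein of the same granules, fell by 8.42 ± 0.26, Ltf, lactoferrin, by 6.44 ± 0.27 and Camp, the cathelicidin peptide, by 6.09 ± 0.36. Of 16 measured genes of later neutrophil granules and surface, 15 fell and none rose, all 15 in 3 fits, with a median of -4.53. Averaged over the list, the M0 arrays lay at 9.97 to 11.15 and the M2a arrays at 5.51 to 5.68.

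Genes of the primary granules and of granulocyte progenitors all fell, 13 of 13 and 13 in 3 fits, with a median of -3.17. Mpo, myeloperoxidase, read 13.10, 11.40, 10.23, 12.07 and 11.08 in M0 and 4.75, 4.79 and 4.74 in M2a. M0 array 1 was the highest and M0 array 3 the lowest, with M2a far below both, and the difference was -6.81 ± 0.48 (adjusted p = 1.2e-06 in limma). Prtn3, proteinase 3, fell by 6.75 ± 0.35 and Myb, a factor of immature blood cells, by 5.96 ± 0.43. The list averaged 7.96 to 10.11 in the M0 arrays and 5.13 to 5.28 in M2a, and under the hybridization covariate 7 of the 13 were called lower. In bulk RNA, fewer cells of a type and less RNA per cell cannot be told apart, here and for every cell type below.

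Genes of eosinophils, basophils and mast cells had 12 of 17 lower and 1 higher, 11 and 1 in 3 fits. Prg2, the major basic protein of eosinophils, read 13.11, 12.53, 11.96, 12.48 and 12.59 in M0 and 4.07, 3.75 and 3.95 in M2a, and fell by 8.61 ± 0.22, and Siglecf, a surface lectin of eosinophils, fell by 3.79 ± 0.39. Rnase2a, the member that rose, therefore went against the rest of its list. Under the hybridization covariate 3 were higher and 8 lower. Among monocyte genes 1 of 8 was higher and 5 lower. Plac8 read 12.58, 11.40, 10.74, 11.72 and 11.42 in M0 and 4.16, 4.26 and 4.60 in M2a. All 12 of the largest falls were lower in every M2a array than in any M0 array, which the rule that chose them required. Of these, 7 were also lower than in M1, with the same limit as for the rises. For Mpo, Prtn3, Ltf, Camp and Myb no difference between M2a and M1 was called. In other settings some were. With M0 arrays 4 and 5 alone, Prtn3 was lower than in M1 (-0.78, adjusted p = 0.0027 in limma) and Mpo higher (0.79, 0.038). Both were also called without M0 arrays 1 and 4 (0.0089 and 0.015) and with array weights (0.00054 and 0.0067). Prtn3 was called without M0 array 1 (0.032) and under the hybridization covariate (0.037) as well, and Camp was lower than in M1 with array weights (-0.71, 0.026) and under that covariate (-0.85, 0.040).

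Cell division genes fell almost throughout. Of 25 measured genes of mitosis, 24 fell and none rose, all 24 in 3 fits, 23 of them by at least 2-fold, with a median of -2.01. Mki67, the proliferation marker Ki-67, read 10.73, 10.10, 9.85, 10.49 and 9.96 in M0 and 6.80, 6.76 and 6.34 in M2a, and fell by 3.59 ± 0.19, and Birc5, survivin, fell by 2.96 ± 0.22. Only Bub3 was not called, with a difference of 0.07. Of 25 genes of DNA replication, 18 fell and none rose, 16 in 3 fits, with a median of -1.06. Uhrf1, which carries DNA methylation through replication, read 7.58, 7.74, 7.07, 7.24 and 7.69 in M0 and 4.60, 4.82 and 4.37 in M2a, and Rrm2, a subunit of ribonucleotide reductase, fell by 2.80 ± 0.16. Granulocyte progenitor genes fell in the same comparison, and their part in the falls of division genes was not tested.

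Markers of cell types that the sort should not hold were also counted. Of 20 stroma and endothelium genes, 13 were lower and 1 higher, with 12 falls in 3 fits, and 3 were higher without M0 arrays 1 and 4. Sparc, a matrix protein of stromal cells, read 6.94, 9.30, 8.13, 7.46 and 8.78 in M0 and 4.50, 4.53 and 3.98 in M2a, and Bgn, biglycan, fell by 3.53 ± 0.35. Megakaryocyte and red-cell genes had 1 of 12 higher and 4 lower, 3 and 4 without M0 arrays 1 and 4, and 4 and 3 under the hybridization covariate. The platelet chemokines Pf4 and Ppbp, which macrophages can also make, fell by 3.54 ± 0.16 and 4.61 ± 0.25, while Vwf, von Willebrand factor, rose by 2.06 ± 0.35. Lymphocyte and natural killer cell genes had 3 of 17 higher (17.6%) and 2 lower (11.8%), near the 18.6% and 13.3% of all genes. It was 1 and 1 without M2a array 2 and 7 and 1 under the hybridization covariate. The list averaged 4.79 to 5.12 in M0 and 4.74 to 4.77 in M2a, and so lay under the median gene. Cd79b, a chain of the B cell receptor, fell by 2.89 ± 0.29, and the rises of Cd3e (0.36 ± 0.09; 0.34 without M2a array 2, where its adjusted p in limma was 0.057) and Pax5 (0.48 ± 0.10) were small. For Pax5 the rise was called on 1 of 2 probe sets. The list of stroma and endothelium genes averaged 5.69 to 6.40 in M0 and 4.52 to 4.72 in M2a, without overlap, and the part of these cells in other falls was not tested.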

How the data were processed

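Total RNA of F4/80-positive cells was hybridized to Affymetrix mouse arrays of 45101 probe sets, per the labels. The authors deposited log2 values per probe set. The submitters' processing notes name Partek and no version of it. What the authors did for background correction, probe summary and normalization is not given in the sources used here. Deposited values lay between 0.73 and 14.49. Precision is limited by the number of arrays.

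The array's gene table listed 35890 probe sets. Of these, 34958 had 1 symbol (34754 of them updated through the Entrez identifier) and 932 with several symbols were not used. Of the 18193 genes, 9010 had several probe sets. Low values were kept. Differences were fitted by limma 3.58.1 under R 4.3.3, with lmFit and eBayes on group means over 11 arrays (8 residual degrees of freedom that count the M0 arrays as independent), with Benjamini-Hochberg adjustment over all genes. The fit was also run on simulated independent arrays with the same spread per gene in all groups. In the data the M0 arrays tie and vary more than M2a, so that run does not test the fit under these conditions. M2a and M0 arrays of the same number did not deviate together (correlations 0.000406, 0.00831 and -0.0392). Arrays of unlike numbers gave -0.0355 to 0.0392. With so few arrays and tied M0 means, these values cannot settle whether the numbers pair samples.

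The comparison and the 44 gene lists (759 of 838 genes measured) were chosen with earlier results of these data known. The rule for named genes took the 12 largest rises and 12 largest falls among genes with a usual symbol that held in 3 fits and did not overlap. It added up to 2 rises and 2 falls per list by the same criteria, every usual M2a gene and the sex chromosome genes. It gave 157 genes, 149 of them called. The 7 macrophage genes, Il4ra, Stat6, Nos2, Odc1 and Il10rb were named beyond it. So were Zbtb46, Xcr1, Siglech, Cd209a, Bub3, Asns and the genes said so in the text. Of 75 named genes with several probe sets, all probe sets were called the same way for 56, and for 1 (Fdft1) a probe set was called the opposite way. Promoter sequences are RefSeq's. Alternatives were fits of fewer arrays, each array left out, a replicate block, other normalizations and probe set choices, a filter on low genes, other variance models and control-probe covariates.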

Additional observations from a re-analysis of the deposited data

How the results depend on the processing

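The number of genes called was 5804 and ran from 4161 to 6829 over fits that left out an array, and the number at 2-fold, 1703, from 1562 to 1868. The number called was 3801 with M0 arrays 4 and 5 alone, and 4652 with the M1 arrays left out of the fit. It was 9008 under the hybridization covariate, which shared 3045 of the calls. That covariate gave 2705 genes at 2-fold, 707 higher and 1998 lower, in the place of 802 and 901. The replicate block gave 6492 calls, but whether the numbers pair samples is not known. In the other settings both counts stayed within 1.5 times. Depth does not apply to arrays, and the M0 spread and the tie among M0 arrays limit what can be called.

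Under the hybridization covariate the difference between M2a and M0 turned to -1.32 for Mrc1, 0.34 for Ccl17, 0.45 for Ccl22, -0.89 for Pparg, -0.86 for Il1rn, -0.78 for Cd36, -0.08 for Mitf, -0.52 for Gla, -0.27 for Acsl4, -0.35 for Cxcl14, -0.21 for Rel, -0.28 for Cd274 and 0.29 for Tsix. Mrc1, Ccl22, Pparg, Il1rn and Cd36 were called in that direction. Over fits that left out an array, Ccl17 ran from -0.09, Myc from -0.18 and Ltf, against M1, up to 0.17. Ccl17 was 0.07 without M0 arrays 1 and 4, 0.00 without M0 array 1 and 0.04 with array weights. Ccl22 was 0.12, 0.04 and 0.08 in those settings, 0.04 without M0 array 4, 0.00 to 0.02 without M2a array 2 or 3, 0.01 after quantile normalization and 0.00 with median centring. Myc was 0.03 without M0 array 5. Slc2a3 was 0.23 and Fdft1 0.10 without _x_at and _s_at probe sets, and Fdft1 was 0.05 on the mean of its probe sets. Against M1, Eif2s3y was -0.06 with the actin covariate, Ltf -0.03 without M2a array 1, -0.05 with the hybridization and -0.11 with the actin covariate, and Myb -0.01 on the mean of probe sets and -0.02 with the actin covariate. The cause was not tested.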

Other observations

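Outside the 44 lists, 36 genes with a usual symbol rose at least 8-fold and 69 fell at least 8-fold and held in 3 fits. The examples here were chosen after their values were seen. Wfs1, a membrane protein of the endoplasmic reticulum, read 5.90, 6.26, 6.16, 5.76 and 6.45 in M0 and 10.16, 10.13 and 10.58 in M2a, a rise of 4.18 ± 0.16 (adjusted p = 1.1e-08 in limma). Sphk1, which makes the signalling lipid sphingosine 1-phosphate, read 3.92, 4.96, 4.59, 4.40 and 4.58 in M0 and 8.38, 8.46 and 8.44 in M2a. Chchd10, a mitochondrial protein, rose by 4.04 ± 0.23 and Dusp4, a phosphatase of MAP kinases, by 4.13 ± 0.24. Fgfr1, a fibroblast growth factor receptor, read 4.64 to 4.78 in M0 and 7.83 to 8.12 in M2a. F7, coagulation factor VII, rose by 3.83 ± 0.26, opposite to F13a1. Cd200, a ligand that restrains myeloid cells, read 4.61, 5.66, 6.47, 4.80 and 6.35 in M0 and 9.53, 9.43 and 9.55 in M2a, and differed from M1 by 0.29 (adjusted p = 0.66 in limma), whereas the other rises named in this paragraph were also higher than in M1.

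Among the falls outside the lists was Id3, an inhibitor of helix-loop-helix factors that BMP signalling induces. It read 9.82, 10.72, 10.61, 9.90 and 10.88 in M0 and 4.67, 4.55 and 4.66 in M2a, without overlap, and fell by 5.76 ± 0.23 (adjusted p = 1.3e-08 in limma). Its relative Id1 fell by 4.49 ± 0.22 and Smad6, an inhibitor of BMP signalling, by 3.09 ± 0.35. Apoe, the apolipoprotein through which macrophages release cholesterol, read 13.51, 13.98, 14.07, 13.68 and 14.03 in M0 and 9.22, 9.53 and 8.59 in M2a, and its neighbour Apoc2 fell by 4.15 ± 0.17. Coro1a, an actin-binding protein of leukocytes, fell by 5.00 ± 0.20. All of these falls were also called against M1. The rises and falls of this section were picked by their M2a values, which also enter the difference from M1. The share of all genes called against M1 is not given here.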
